A study of Mus musculus with 12 samples.

Results

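Imprinted genes are expressed mainly from the copy inherited from one parent, and many of them act on fetal growth and are silenced in the liver after birth. Here 10 such genes were chosen by name: the maternally expressed lncRNAs H19, Meg3, Rian and Mirg, the growth factor Igf2, the Notch-like ligand Dlk1, the cyclin-dependent kinase inhibitor Cdkn1c, the zinc-finger proteins Peg3 and Plagl1, and the growth factor receptor adaptor Grb10. Every listed transcript of these genes in the FPKM tables was used, and the level of a gene was the sum over its transcripts. Of the 10 genes, 8 had a listed transcript, with 29 transcripts among the 31315 listed in all, and the genes stood among 15230 genes tested. Igf2 and Dlk1 had none and were not analysed here.

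The livers came from 12 mice, 6 given Pien Tze Huang (PZH, a Chinese herbal medicine) and 6 controls given double-distilled water. Both groups received CCl4 to induce hepatic fibrosis. The paper reports obvious fibrosis in controls at the end but very little in PZH mice, whose serum markers of liver injury were also lower. The groups thus differed in injury and fibrosis as well as in treatment. The part of that difference in the changes below was not tested. The labels give the strain as C57BL/8 and the methods as C57BL/6J, male and 6 weeks old at the start. CCl4 solution was injected intraperitoneally 2 times a week at 10 µl per g body weight, PZH at 0.25 mg per g or water was given into the stomach once a day, and the mice were killed in week 8. No mouse without CCl4 was among the samples, so a level in PZH cannot be set against a healthy liver. As bulk tissue was sequenced, fewer cells of a type and less RNA per cell cannot be told apart.

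In the imprinted Dlk1 to Dio3 interval of chromosome 12, the maternal copy gives a row of noncoding RNAs, Meg3, Rian and Mirg among them, that host many miRNAs and small nucleolar RNAs, while the paternal copy gives the proteins Dlk1, Rtl1 and Dio3. On chromosome 7, H19 and Igf2 share enhancers and are expressed from opposite parental copies, and Cdkn1c lies in the neighbouring imprinted cluster. H19 RNA is also the precursor of miR-675. Plagl1 encodes a transcription factor that, in mice, is known to act on other imprinted genes.

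Some of the mature miRNAs encoded within the spans of the listed lncRNA transcripts are shown. The levels below are those of the host RNAs, while the miRNAs themselves were not measured. By the GENCODE M21 gene bounds on GRCm38, 1 miRNA gene in the RefSeq table lay in H19, 2 in Meg3, 3 in Rian and 14 in Mirg, on the strand of the host, and from the start of Meg3 to the end of Mirg there were 57. Of the 14 in Mirg, 3 lay within the span of its 1 listed transcript, and the level given for Mirg is that of this transcript. Within the listed spans, miR-1906 in Meg3, miR-1188 in Rian and the other arms of the 3 Mirg miRNAs are not shown. The mature sequences shown are from RefSeq (GRCm38.p6), with the seed (bases 2 to 8) in capitals. Of these, miR-675 lies in H19, miR-770 in Meg3, miR-341 and miR-370 in Rian, and miR-154, miR-496a and miR-377 in Mirg.
miR-675-5p: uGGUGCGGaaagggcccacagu
miR-675-3p: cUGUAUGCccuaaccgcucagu
miR-770-5p: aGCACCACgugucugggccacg
miR-770-3p: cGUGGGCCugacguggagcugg
miR-341-5p: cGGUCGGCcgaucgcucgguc
miR-341-3p: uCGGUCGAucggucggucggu
miR-370-5p: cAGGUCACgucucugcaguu
miR-370-3p: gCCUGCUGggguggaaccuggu
miR-154-5p: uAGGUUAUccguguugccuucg
miR-496a-5p: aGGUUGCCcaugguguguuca
miR-377-3p: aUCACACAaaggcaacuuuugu
Of the 37 mature sequences within the 4 genes, miR-496a-5p shared its seed with miR-453, which lies in Mirg outside the listed transcript, and the other seeds differed, so the 37 sequences held 36 seeds.

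The RefSeq promoter windows of the chromosome 12 lncRNAs, 300 bases around the annotated start, are shown because these genes were all called higher in PZH. The Mirg window ends upstream of the start of its 1 listed transcript (chr12:109737780), so it does not hold the start of the RNA whose level is given. Capitals mark matches, on either strand, to TGACGTCA (the cAMP response element), TATAAA (the TATA core), CCAAT and TGCCGC (the core bound by Zfp57, a keeper of imprints); none of these overlapped except the TATA matches of Meg3 on the 2 strands.
Meg3, first window, chr12:109540746-109541045, plus strand: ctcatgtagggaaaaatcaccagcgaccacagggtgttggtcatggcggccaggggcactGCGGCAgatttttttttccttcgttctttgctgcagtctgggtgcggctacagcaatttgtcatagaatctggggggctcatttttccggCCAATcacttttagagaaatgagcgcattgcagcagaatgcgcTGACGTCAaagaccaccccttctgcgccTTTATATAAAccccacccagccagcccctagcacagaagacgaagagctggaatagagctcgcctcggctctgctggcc
Meg3, second window, chr12:109545148-109545447, plus strand: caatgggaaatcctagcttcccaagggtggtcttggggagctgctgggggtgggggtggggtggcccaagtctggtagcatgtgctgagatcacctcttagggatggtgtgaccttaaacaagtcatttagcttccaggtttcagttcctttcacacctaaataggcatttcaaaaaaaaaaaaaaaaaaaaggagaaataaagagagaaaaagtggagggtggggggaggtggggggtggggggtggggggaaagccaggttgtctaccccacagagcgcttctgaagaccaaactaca
Rian, chr12:109603695-109603994, plus strand: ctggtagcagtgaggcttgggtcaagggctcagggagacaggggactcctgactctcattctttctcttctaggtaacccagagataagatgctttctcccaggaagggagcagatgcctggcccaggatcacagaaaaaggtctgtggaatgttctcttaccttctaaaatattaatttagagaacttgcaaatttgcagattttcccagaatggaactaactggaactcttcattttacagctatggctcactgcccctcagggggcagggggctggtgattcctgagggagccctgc
Mirg, chr12:109734731-109735030, plus strand: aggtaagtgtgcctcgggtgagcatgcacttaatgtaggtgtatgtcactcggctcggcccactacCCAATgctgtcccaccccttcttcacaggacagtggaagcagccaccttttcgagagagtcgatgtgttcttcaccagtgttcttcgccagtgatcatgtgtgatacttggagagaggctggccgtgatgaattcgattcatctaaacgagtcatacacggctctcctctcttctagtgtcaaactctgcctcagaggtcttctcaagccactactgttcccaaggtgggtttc
The first Meg3 window held 1 TGACGTCA, 2 TATAAA, 1 CCAAT and 1 TGCCGC, the Mirg window held 1 CCAAT, and these letters were in neither the second Meg3 window nor the Rian window. Among 32851 mouse promoter windows, TGACGTCA was in 1.79%, TATAAA in 13.6%, CCAAT in 37.4% and TGCCGC in 11.6%. The 2 bases CG occurred 13 times in the first and 1 time in the second Meg3 window, 10 times in the Mirg window and 0 times in the Rian window, against a median of 7.

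PZH-treated livers had more of all 4 lncRNAs and of Cdkn1c and Plagl1 than control livers, and Peg3 and Grb10 did not pass the test. By limma on log2(FPKM + 1) over all genes with Benjamini-Hochberg adjustment, 6 of the 8 listed genes rose and 0 fell at an adjusted p threshold of 0.05. Over all genes, 43.5% were called, 12.8% as higher and 30.6% as lower in PZH, and of the genes in the lncRNA table, the share called higher was 15.6%. The median log2 fold change over all genes tested was -0.10. The tables list a transcript only where its FPKM summed to more than 1 over the 12 mice, and at control levels no transcript of H19 or Mirg would reach that sum. H19 and Mirg were therefore listed only through their PZH values and had to have a higher mean in PZH, so the 6 of 8 is no support for a shared direction. Every PZH mouse was above every control mouse for H19, Meg3, Rian, Mirg and Plagl1, a pattern seen in 6.56% of all genes. Fold changes on this scale understate the change of genes with a low FPKM. The 12 mice were different animals, so p-values measure the spread between mice.

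**Figure D1:**
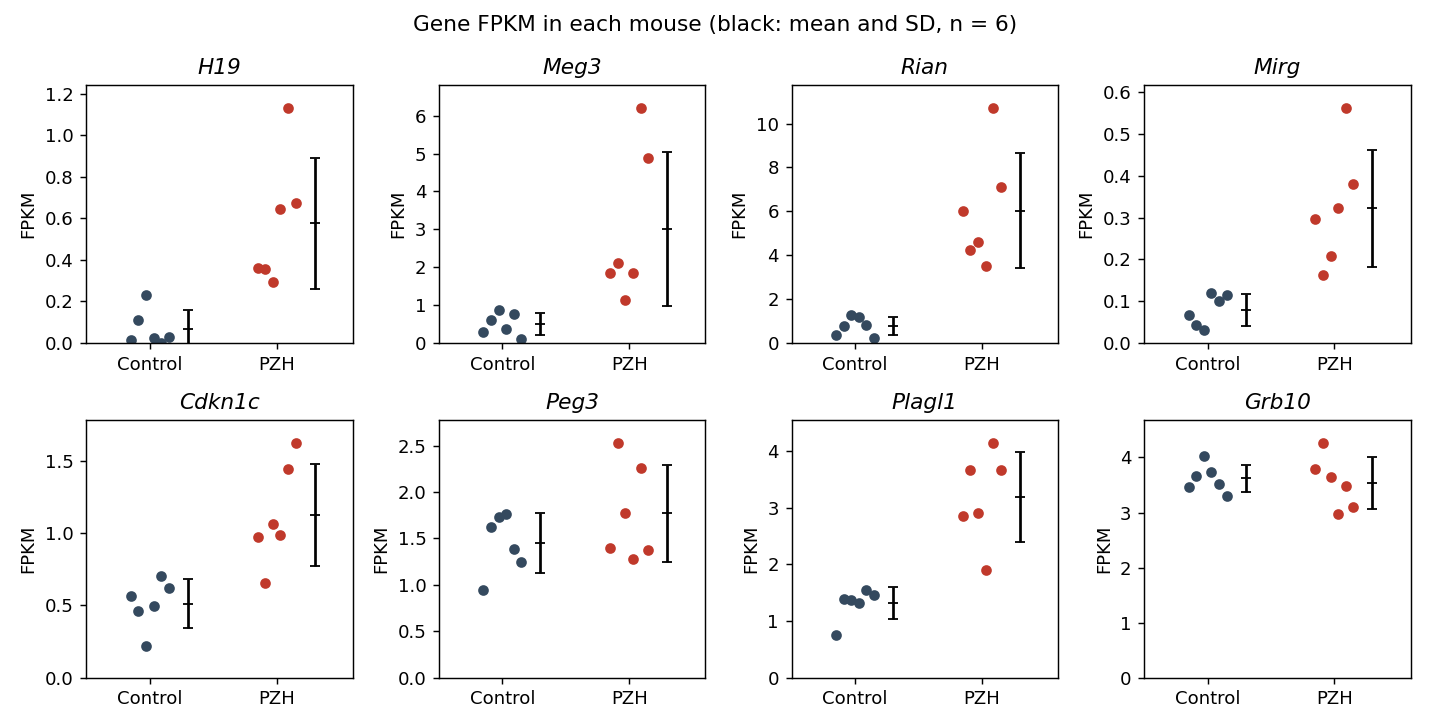
Gene FPKM (y axis, from 0) of the 8 listed genes in each control and PZH mouse (points), with the mean and SD of 6 mice in black. All PZH mice lie above all control mice for H19, Meg3, Rian, Mirg and Plagl1, and the groups overlap for Cdkn1c, Peg3 and Grb10.

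Rian (ENSMUSG00000097451, GRCm38 chr12:109603940-109661716, plus strand), a host of C/D small nucleolar RNAs, had the largest log2 fold change of the 8 genes on the log2(FPKM + 1) scale. Its FPKM was 3.52 at the lowest, 5.31 at the median and 10.7 at the highest in PZH mice, and 0.214, 0.783 and 1.25 in controls. The lowest PZH mouse was thus above the highest control mouse. The mean was 6.03 ± 2.63 in PZH and 0.764 ± 0.42 in controls (SD, n = 6), a ratio of 7.89. The log2 fold change was 1.95 (SE 0.23, adjusted p = 4.21e-05 by limma), the 4th largest rise among 1042 genes of the lncRNA table. This rank is of the sum over all 13 transcripts, most of which control levels alone would not list. With the 3 of its 13 transcripts that control levels alone would list, a choice made after the values were seen, the mean was 2.94 ± 1.38 in PZH and 0.454 ± 0.272 in controls (SD, n = 6), a log2 difference of 1.39 (exact permutation p = 0.0022, the smallest it can give).

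Meg3 (ENSMUSG00000021268, chr12:109541001-109571726, plus strand), the lncRNA at the head of the row, had an FPKM of 1.15, 1.98 and 6.19 (lowest, median and highest) in PZH mice and of 0.0967, 0.484 and 0.875 in controls. PZH mice 5 and 6 stood above the other 4, at 6.19 and 4.89, and the groups did not overlap. The mean was 3.004 ± 2.03 in PZH and 0.498 ± 0.298 in controls (SD, n = 6), and the log2 fold change was 1.301 (SE 0.27, adjusted p = 0.00193 by limma). With the 4 of its 5 transcripts that control levels alone would list, the log2 difference was 1.25 (exact permutation p = 0.0022). On the log2(FPKM + 1) scale Rian and Meg3 were the 2 of the 8 genes past a 2-fold change with an unadjusted p under 0.05, a threshold that 1.54% of all genes passed upward. With a pseudocount of 0.1 in place of 1, 6 of the 8 passed it, among them H19 and Mirg, which were listed only through their PZH values. The share of all genes that passed at 0.1 was not worked out, so the 6 cannot be set against it.

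Mirg (ENSMUSG00000097391, listed transcript at chr12:109737780-109741503, plus strand), a host of miRNAs, was low in both groups. Its FPKM was 0.163, 0.309 and 0.561 (lowest, median and highest) in PZH mice and 0.0299, 0.0839 and 0.118 in controls, without overlap. The log2 fold change was 0.29 (SE 0.07, adjusted p = 0.00581 by limma). These levels corresponded to about 9.4 to 31.9 fragments per PZH mouse and 1.5 to 8 per control mouse, as estimated from the FPKM, the transcript length and the worth of 1 fragment. Mirg was listed only through its PZH values, so its test and its lack of overlap were in part set by the listing.

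H19 (ENSMUSG00000000031, chr7:142575529-142578143, minus strand), the host of miR-675 and an RNA abundant in fetal liver, was nearly absent from control livers. Its FPKM was 0.292, 0.503 and 1.13 (lowest, median and highest) in PZH mice and 0, 0.0258 and 0.232 in controls, again without overlap. The mean was 0.576 ± 0.316 in PZH and 0.0678 ± 0.0889 in controls (SD, n = 6), a ratio of 8.50 that rests on about 15.2 control fragments in all, and the log2 fold change was 0.54 (SE 0.11, adjusted p = 0.00213 by limma). The control values stood for 0 to 6 fragments per mouse and those of PZH mice for 12.1 to 39.8. H19 too was listed only through its PZH values, so its test and its lack of overlap were in part set by the listing.

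Cdkn1c (ENSMUSG00000037664, chr7:143458339-143461050, minus strand), which encodes the growth-restraining inhibitor p57, had an FPKM of 0.659, 1.03 and 1.62 (lowest, median and highest) in PZH mice and 0.217, 0.534 and 0.704 in controls. PZH mouse 2 alone lay within the control range. The log2 fold change was 0.48 (SE 0.11, adjusted p = 0.00412 by limma), and the ratio of the means was 2.20.

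Plagl1 (ENSMUSG00000019817, chr10:13090788-13131694, plus strand) had an FPKM of 1.90, 3.28 and 4.14 (lowest, median and highest) in PZH mice and 0.76, 1.39 and 1.56 in controls, without overlap. The log2 fold change was 0.84 (SE 0.13, adjusted p = 0.000315 by limma), and the ratio of the means was 2.43.

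Peg3 (ENSMUSG00000002265, chr7:6703892-6730421, minus strand), a paternally expressed zinc-finger gene, had means of 1.77 ± 0.518 in PZH and 1.45 ± 0.32 in controls (SD, n = 6), and the log2 fold change was 0.17 (SE 0.13, adjusted p = 0.303 by limma). Grb10 (ENSMUSG00000020176, chr11:11930508-12037401, minus strand), which dampens insulin and IGF receptor signalling, had means of 3.54 ± 0.473 and 3.62 ± 0.25, and the log2 fold change was -0.03 (SE 0.07, adjusted p = 0.78 by limma). Both groups overlapped for these 2 genes. Exact two-sided permutation of the group labels gave p = 0.0022, the smallest it can give, for H19, Meg3, Rian, Mirg and Plagl1, and p = 0.0043 for Cdkn1c, 0.219 for Peg3 and 0.673 for Grb10. H19 and Mirg were listed only through their PZH values, so their permutation p was in part set by the listing.

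Ordered by mean FPKM, which is per length, the PZH levels ran Rian, Grb10, Plagl1, Meg3, Peg3, Cdkn1c, H19 and Mirg. In controls the order ran Grb10, Peg3, Plagl1, Rian, Cdkn1c, Meg3, Mirg and H19. Neighbours in the PZH order differed by less than the larger of their SDs, except that Cdkn1c lay below Peg3 and H19 below Cdkn1c by more. In controls Peg3 lay below Grb10, Rian below Plagl1 and Mirg below Meg3 by more than that, and the other neighbours did not.

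Of the 21 listed transcripts of H19, Meg3, Rian and Mirg, 14 would not be listed at control levels, so their direction was largely set by the listing. Of the other 7, all of Meg3 or Rian, 4 were called higher (Meg3-205, Meg3-204, Rian-202 and Rian-213) and 3 did not overlap between the groups, against 12.2% called higher and 7.47% without overlap among the 1432 lncRNA transcripts. Over all 21, the call was reached by 9 of 13 Rian transcripts, 3 of 5 of Meg3, 2 of 2 of H19 and 1 of 1 of Mirg. Rian-202, with 11 exons, had the largest log2 fold change, 0.93 (adjusted p = 0.00324 by limma). Rian-210 and Rian-215 were listed at 0 in all 6 controls and so could be listed only through PZH mice, and Rian-215 did not pass (adjusted p = 0.0787). On the log2(FPKM + 1) scale none of the 21 reached a 2-fold change, while the mean FPKM of 20 was over 2 times as high in PZH.

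**Figure D2:**
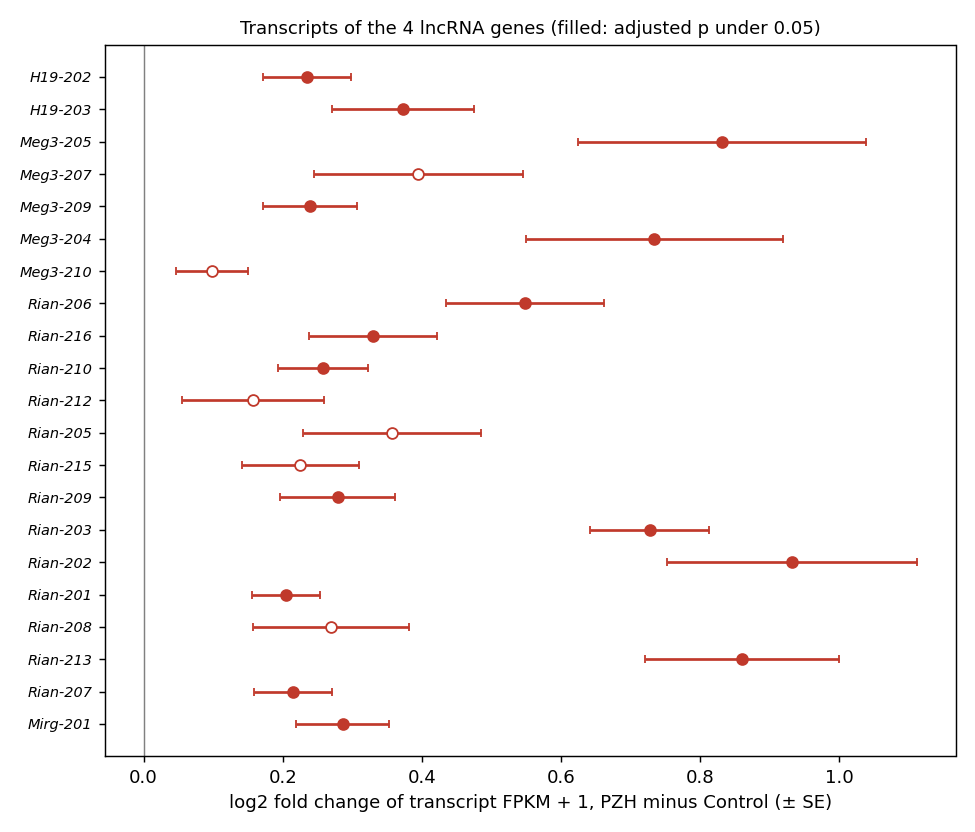
Log2 fold change of FPKM + 1 (x axis, PZH minus Control, with its SE) for each listed transcript of H19, Meg3, Rian and Mirg (y axis), with filled points for adjusted p under 0.05. All 21 lie above 0 and 15 are filled, but 14 of the 21 would not be listed at control levels.

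The protein-coding members were less even. Of their 8 transcripts 1 passed, Plagl1-222, with a log2 fold change of 0.43 (adjusted p = 0.0246 by limma), against 5.73% of protein-coding transcripts called higher. The 2 longer Plagl1 transcripts took turns: Plagl1-202 was listed at 0 in PZH mouse 4 and control mice 1 and 4, the mice with the most Plagl1-201. Their log2 fold changes were 0.82 (adjusted p = 0.161) and -0.06 (adjusted p = 0.91). The Cdkn1c transcripts were likewise shared out unevenly, with log2 fold changes of 0.16, 0.36 and 0.08 that did not pass although their sum did.

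Around Meg3 the rise was compared with other listed genes of the interval, a comparison chosen after the values were seen. All 5 listed genes on the Meg3 strand from Meg3 to the end of Mirg rose, namely Meg3, Rian, Gm26945, B830012L14Rik and Mirg. At control levels Gm26945, B830012L14Rik and Mirg would not be listed, so the count of 5 is in part set by the listing. Gm26945 had a log2 fold change of 0.23 (adjusted p = 0.0146 by limma) and B830012L14Rik one of 0.15 (adjusted p = 0.0419). The call of B830012L14Rik was lost under 10 of 19 alternatives, the replicate block (adjusted p = 0.0788 by limma) and 8 of the fits without 1 mouse among them, with an adjusted p of up to 0.0851, while its sign held. Rtl1, a retrotransposon-derived gene on the other strand, had means of 0.142 ± 0.113 in PZH and 0.0331 ± 0.0082 in controls, without overlap. It did not pass (adjusted p = 0.103 by limma). Control levels alone would not list Rtl1, so its lack of overlap was in part set by the listing. Gm34667, a lncRNA further along on the minus strand, rose by 0.72 on the log2 scale (adjusted p = 0.0138 by limma). Dio3os, which control levels would not list either, had an adjusted p of 0.304 by limma. In the 1 Mb on either side of the interval, 0 of 25 listed genes rose and 10 fell, against 12.8% and 30.6% of all genes, with Wars at -1.13 and Hsp90aa1 at -0.99.

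**Figure D3:**
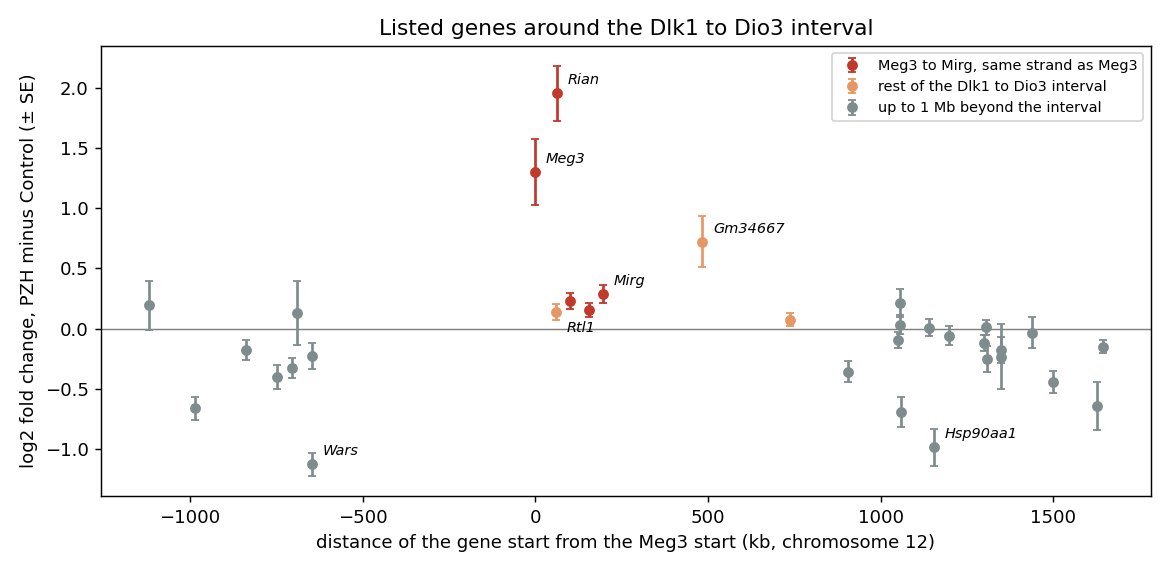
Log2 fold change (y axis, PZH minus Control, with its SE) of listed genes by distance in kb from the start of Meg3 (x axis), for genes from Meg3 to Mirg on the Meg3 strand (red), the rest of the Dlk1 to Dio3 interval (orange) and up to 1 Mb beyond it (grey). The 5 red points lie above 0, and the 10 grey genes that passed the test all lie below it.

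Within 500 kb of H19, Mrpl23 (a mitochondrial ribosomal protein gene) rose by 0.34 and Ctsd (the lysosomal protease cathepsin D) by 0.34 on the log2 scale, with adjusted p of 0.0165 and 0.0262 by limma, a window also chosen after the values were seen. Lsp1 fell by 0.48, Dusp8 by 1.08 and Tssc4 by 0.63, while Ifitm10, Prr33, Tspan32, Cd81 and Trpm5 did not pass. Over all genes, 12.8% were called higher and 30.6% lower.

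Within a group, levels of the lncRNAs were compared mouse by mouse in 8 tests of 4 pairs. In PZH mice Meg3 and Rian had Pearson's r = 0.842 (exact permutation p = 0.0306, adjusted p = 0.0852) and Spearman's rho = 0.543 (p = 0.297, adjusted p = 0.396, n = 6). H19 and Meg3 had r = 0.866 (exact permutation p = 0.0153, adjusted p = 0.0852) and rho = 0.829 (p = 0.0583, adjusted p = 0.233). Meg3 and Mirg had r = 0.835 (exact permutation p = 0.0319, adjusted p = 0.0852) and rho = 0.657 (p = 0.175, adjusted p = 0.35). After Benjamini-Hochberg adjustment over the 8 tests, 0 passed by the exact permutation test, and 3 had an unadjusted p under 0.05. Without the 2 mice farthest from the median of Meg3, r fell to -0.116 for Meg3 and Rian and to 0.0671 for Meg3 and Mirg, so these relations rested on those mice. Without the 2 mice farthest from the median of H19, r for H19 and Meg3 was 0.568. Rian and Mirg had r = 0.821 (exact permutation p = 0.0514, adjusted p = 0.103) and rho = 0.657 (p = 0.175, adjusted p = 0.35). Without the 2 mice farthest from the median of Rian, their r was 0.997. Each r without 2 mice rests on only the 4 mice left and was not tested. In controls no pair had an unadjusted p under 0.05. There r was 0.759 for Meg3 and Rian, 0.58 for H19 and Meg3, -0.593 for Meg3 and Mirg and -0.294 for Rian and Mirg.

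Other imprinted genes did not move one way. Of 52 on the list 33 were listed, of which 9 rose and 6 fell, against 12.8% and 30.6% of all genes. Their median log2 fold change was 0.01, against -0.10 over all genes. Among those that rose, the amino acid transporter Slc38a4 changed by 0.99, the aromatic amino acid decarboxylase Ddc by 0.97 and the splicing-related Snrpn by 0.71 on the log2 scale. Blcap fell by 0.91, Peg10 by 0.70 and Mcts2 by 0.67. Nnat, named after its values were seen, was among the 9 that rose. It was listed at 0 in all 6 controls, so only through PZH mice, and had an FPKM of up to 1.41 there.

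**Figure D4:**
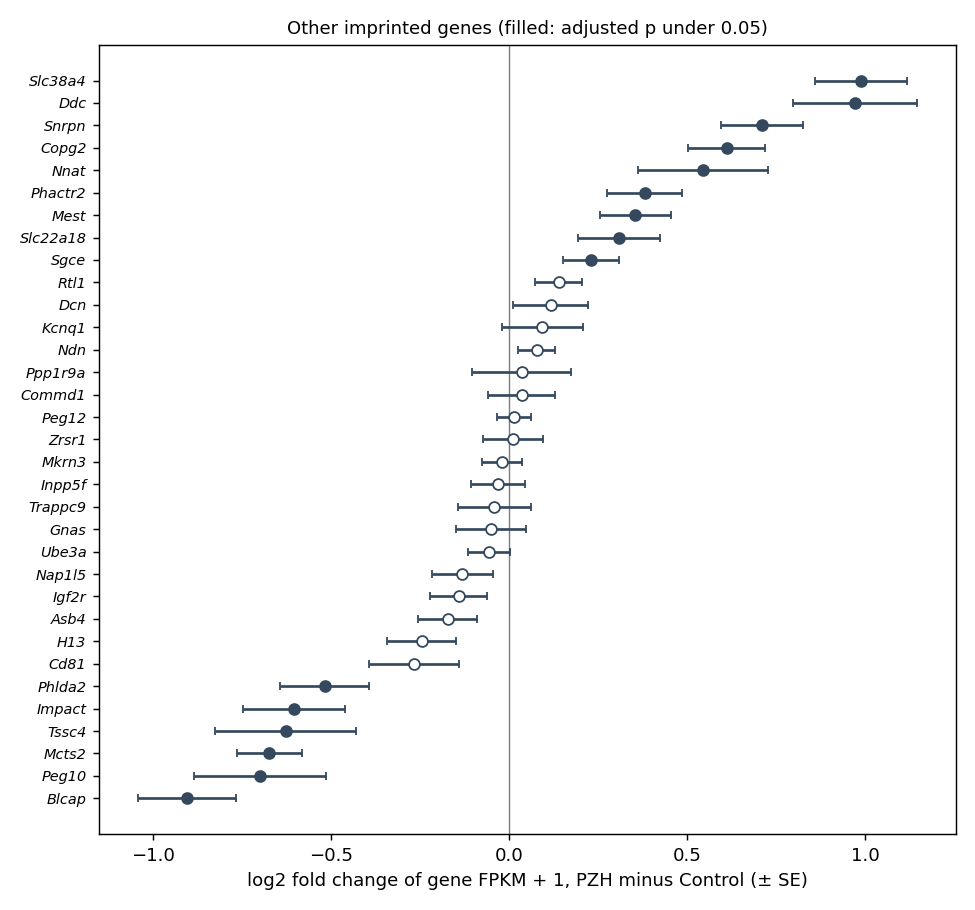
Log2 fold change of gene FPKM + 1 (x axis, PZH minus Control, with its SE) for the 33 listed other imprinted genes (y axis), with filled points for adjusted p under 0.05. Of the filled points, 9 lie above 0 and 6 below it, where 12.8% of all genes were called higher and 30.6% lower.

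Igf2 itself had no listed transcript. Among 16 listed genes of Igf2 signalling and mRNA binding 2 rose and 2 fell, against 12.8% and 30.6% of all genes. Igfbp3, which carries IGFs in blood, rose by 1.06 and the insulin receptor substrate Irs1 by 0.46, while Igfbp1, a binding protein made by hepatocytes, fell by 2.56 and the mRNA-binding Igf2bp2 by 0.37 on the log2 scale. Igf2r, the receptor that clears Igf2, had means of 15.9 in PZH and 17.6 in controls (adjusted p = 0.177 by limma). Of 8 listed fetal liver genes and their repressors, Afp (alpha-fetoprotein) rose by 1.08, Hmga2 fell by 0.49 and Zhx2, a repressor of Afp and H19, fell by 0.36.

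Of 8 listed keepers of imprints 4 fell and 1 rose, where 30.6% of all genes fell and 12.8% rose. Trim28 fell by 0.71, the maintenance DNA methyltransferase Dnmt1 by 0.54, Zfp57 by 0.43 and the insulator protein Ctcf by 0.32, while Uhrf1, which recruits Dnmt1, rose by 0.89 on the log2 scale. Of the 14 cell cycle genes set beside Cdkn1c, 5 rose and 6 fell. The proliferation genes Mki67, Top2a and Ccna2 rose by 1.29, 1.20 and 1.13, and Cdkn1a, the inhibitor p21 of the same family as Cdkn1c, fell by 2.02, while the mitotic kinase gene Cdk1 rose by 0.64 and Cdk4 fell by 0.64.

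Cell type markers moved too, and the counts below stand beside 12.8% of all genes called higher and 30.6% called lower. Of 6 hepatocyte markers 3 rose (Cps1 by 0.85, Alb by 0.68 and Ttr by 0.68 on the log2 scale), and their summed FPKM was 40926 to 57125 in PZH and 23111 to 36523 in controls. Of 12 stellate cell and myofibroblast markers 2 rose and 5 fell, with sums of 312 to 401 and 255 to 387. Timp1 fell by 2.13, Tagln by 1.38, Acta2 by 0.92 and Lox by 0.57, and Reln rose by 0.98 and Col3a1 by 0.62. Of 7 endothelial markers 0 rose and 2 fell, with sums of 78.5 to 102 and 90.5 to 104, where Lyve1 fell by 0.62 and Pecam1 fell by 0.29. Of 8 macrophage markers 3 rose (Clec4f by 0.60, Vsig4 by 0.57 and Csf1r by 0.38) and 2 fell: Marco fell by 2.21 and Cd68 fell by 0.32. Sox9, of 5 cholangiocyte markers, fell by 1.64, and Ly6c2, of 6 leukocyte markers, fell by 0.66. Alas2 rose by 0.30 among 5 erythroid markers, Cela1 rose by 0.99 among the 2 listed pancreas and gut markers, and the 1 listed muscle marker did not pass. The part of these markers in the rise of the imprinted genes was not tested.

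Genes whose levels followed a member most closely from mouse to mouse, after group means were subtracted over 12 mice, were sought among 11230 genes with a mean FPKM of at least 1. For Meg3 they were Prmt9, Clca3a1 and Tbc1d14 (r = 0.936, 0.89 and 0.857), and for Rian they were Gyg, Tfdp2 and Plekhb2 (r = 0.897, 0.843 and 0.831). Peg3 was followed by Adamts12, Epb41l2 and Col6a3 (r = 0.925, 0.919 and 0.916), Plagl1 by Snx12, Rab34 and Ldlrad3 (r = 0.893, 0.876 and 0.863) and Grb10 by Maged1, Ikbip and Itga6 (r = 0.911, 0.888 and 0.875). These are descriptions of the closest of many genes in libraries that share their preparation.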

How the data were processed

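Liver RNA of 6 PZH and 6 control mice was sequenced as strand-specific, ribosome-depleted libraries. Per the labels, the authors used Trimmomatic, HISAT2 and StringTie with GRCm38, and the 2 deposited tables hold transcript FPKM, 1 column a mouse. A transcript is listed where its FPKM summed to more than 1 over the 12 mice, so low transcripts of a gene are not in its sum. Smallest steps of the FPKM implied 26.8 to 42.8 M fragments per mouse, an estimate, and no counts were recovered.

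Transcripts were assigned to genes with GENCODE M21, and gene FPKM was the sum over transcripts of both tables. Groups were compared on log2(FPKM + 1), a pseudocount of 1, with limma 3.58.1 in R 4.3.3 and Benjamini-Hochberg adjustment over all genes, with no filter on low values and no covariate. Transcripts were fitted per table. The 2-fold call needed a log2 fold change of 1 and an unadjusted p under 0.05. Single genes were also tested by exact permutation, and pairs of genes over the 720 orders of 6 mice. Other steps ran in Python 3.11.15 (scipy 1.17.1, numpy 2.4.6, pandas 2.3.3; plots by matplotlib 3.10.9), and the fit was tested on simulated data.

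All listed transcripts of the 10 genes were tested and are counted or plotted, and for each list the called genes are named, up to the 6 with the largest change. The members and lists were chosen with earlier results of these data known. Alternatives tried were median-ratio scaling, a minimum mean FPKM of 1, 0.1 as pseudocount, an equal FPKM sum, separate fits per table, a mean-variance trend, robust moderation, a replicate block and leaving out each mouse.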

Additional observations from a re-analysis of the deposited data

Results flagged for a closer look

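Among 16 groups of 6 mice tested for a single distant sample (8 genes in 2 groups), 1 was found, where chance gives about 1 in 20. Control mouse 1 had the lowest Plagl1, an FPKM of 0.76, and its gap to the next control on the log2 scale was 0.74 of the range of the control group, above Dixon's critical value. Without this mouse the rise of Plagl1 still passed.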

How the results depend on the processing

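The 6 genes that rose kept their direction and their call under each alternative in which they were tested, with adjusted p by limma of at most 0.0149. No alternative undid the listing, and H19 and Mirg were listed only through their PZH values. Their kept calls are therefore no support for a rise. With a mean FPKM of at least 1, H19, Mirg and Cdkn1c were not tested, which left 3 genes called of 5, and 0 of the 3 transcripts tested were called. With a pseudocount of 0.1 all 6 passed 2-fold, with log2 fold changes of up to 2.91 (Rian). The share of all genes past 2-fold at that pseudocount was not worked out, so this count cannot be set against it. Grb10, which did not pass, changed sign under median-ratio scaling (0.11) and without PZH mouse 4, and over the fits without 1 mouse it ran from -0.073 to 0.0083. Leaving out 1 mouse gave 6 genes called, 2 past 2-fold, 13 to 19 transcripts called and 12 to 15 other imprinted genes called. Median-ratio scaling moved the median of all genes by 0.10 and the genes called higher from 1953 to 2975, so that 50.6% rather than 29.5% of calls were higher. With the replicate block the count of called genes stayed at 6; same-numbered mice were different animals, their deviations correlated at -0.0718 to 0.075, and 0 of 6 PZH mice correlated best with the control of their own number. Low FPKM limits H19 and Mirg, whose control levels rest on 0 to 8 fragments per mouse.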
